A study of Mus musculus with 6 samples.

Results

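The genes described are the ligands and receptors of the tumour necrosis factor (TNF) superfamily in lymph node CD4+ T cells of infant and adult mice. They were taken from the count table by symbol: every Tnfsf or Tnfrsf symbol followed by a digit, with Tnf, Lta, Ltb, Ltbr, Fas, Fasl, Cd27, Cd40, Cd40lg and Cd70 added. This gave 42 of 52997 genes, made up of 17 ligands, 24 receptors and the noncoding antisense gene Tnfsf13os. The infant group held 3 mice aged 10 days and the adult group 3 mice aged 7 weeks, all of the strain given as Foxp3-GFP (C57BL/6), a reporter of the regulatory T cell factor Foxp3. Each library came from 1000 double-sorted cells of pooled lymph nodes of 1 mouse, described as naive CD4+ T cells. The library titles name the cells Tconv, short for conventional T cells. No source used here names the markers of the sort or the sex of the mice. The one comparison of the design is infant over adult.

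TNF superfamily ligands are mostly trimeric membrane proteins, some of which can be cut free from the cell, and each binds receptors with cysteine-rich repeats. Receptors with a death domain can start apoptosis through FADD and caspase-8, and most of the others recruit TRAF adaptors that lead to NF-kB. In CD4+ T cells the family is known for costimulation (CD27, OX40, GITR, 4-1BB), for help to B cells and dendritic cells (CD40 ligand), for lymphoid tissue organisation (lymphotoxin) and for the removal of activated cells (Fas).

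Of the 42 members, 22 had enough counts to be tested. Among these Ltb and Tnfrsf26 fell and Tnfrsf13b rose in infant cells at an adjusted p under 0.05 (edgeR quasi-likelihood test, Benjamini-Hochberg over 11681 genes). This is 13.6% of the tested members, beside 3.64% of all tested genes (1.52% higher and 2.11% lower in infant cells). The family was chosen with earlier results of these data known, so these rates are not a test of it. Ltb, the lymphotoxin beta chain and the member with the highest level, was 1.79-fold lower. Tnfrsf13b, which encodes TACI, a receptor of the B cell survival factors BAFF and APRIL, was 1.48-fold higher. Tnfrsf26, a receptor gene beside the mouse TRAIL decoy receptor genes, was 1.53-fold lower. The other 19 tested members did not pass. Fold changes of tested members were as often above 0 as below it, at 11 each, with a median log2 fold change of -0.012 beside -0.0017 over all tested genes. Only the call for Ltb was kept without each library in turn. In bulk libraries fewer cells of a type and less RNA per cell cannot be told apart.

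Promoter windows are shown for Ltb and Tnfrsf13b, the called members that had one, whose RNA moved in opposite directions. The promoter set used here held no window for Tnfrsf26, the other called member. Both windows come from RefSeq on build GRCm38.p6 and run from 250 bases before the start that RefSeq annotates to 50 bases from it. The window of Ltb is chr17:35194257-35194556, plus strand, set on the RefSeq start at 35194507, which lies 68 bases inside the gene as GENCODE places it. The window of Tnfrsf13b is chr11:61126505-61126804, plus strand. Capitals mark a match to the kappa B consensus, the site bound by NF-kB; TGACTCA (the AP-1 site) and TATAAA were searched too, all on both strands, and neither was in these 2 windows.
Ltb: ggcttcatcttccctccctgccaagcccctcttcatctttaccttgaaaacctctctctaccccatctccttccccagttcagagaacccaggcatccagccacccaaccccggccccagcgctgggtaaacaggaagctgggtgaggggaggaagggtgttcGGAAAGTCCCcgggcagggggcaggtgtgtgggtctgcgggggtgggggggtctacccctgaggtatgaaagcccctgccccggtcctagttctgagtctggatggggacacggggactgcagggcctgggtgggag
Tnfrsf13b: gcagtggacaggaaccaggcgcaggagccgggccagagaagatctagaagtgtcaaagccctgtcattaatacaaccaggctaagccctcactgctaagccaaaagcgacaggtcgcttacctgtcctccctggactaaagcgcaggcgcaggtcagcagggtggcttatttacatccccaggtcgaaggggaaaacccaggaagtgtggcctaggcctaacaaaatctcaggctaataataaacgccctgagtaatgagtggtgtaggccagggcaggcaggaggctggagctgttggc
The kappa B match of Ltb lies on the minus strand at bases 164 to 173 of the window, which is 87 to 78 bases before the RefSeq start and 19 to 10 bases before the GENCODE start, and overlaps no match of the other motifs. The kappa B consensus was found in 4.51% of 32851 windows of the same length, the AP-1 site in 5.20% and TATAAA in 13.6%. Windows were present for 31 members, 18 of them tested. Among tested members with a window, Ltb and Tnfrsf9 held the kappa B consensus, Fas and Tnfrsf9 the AP-1 site, and Tnf, Lta and Tnfsf11 TATAAA. A match is a description of letters and was not tied to binding here.

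**Figure D1:**
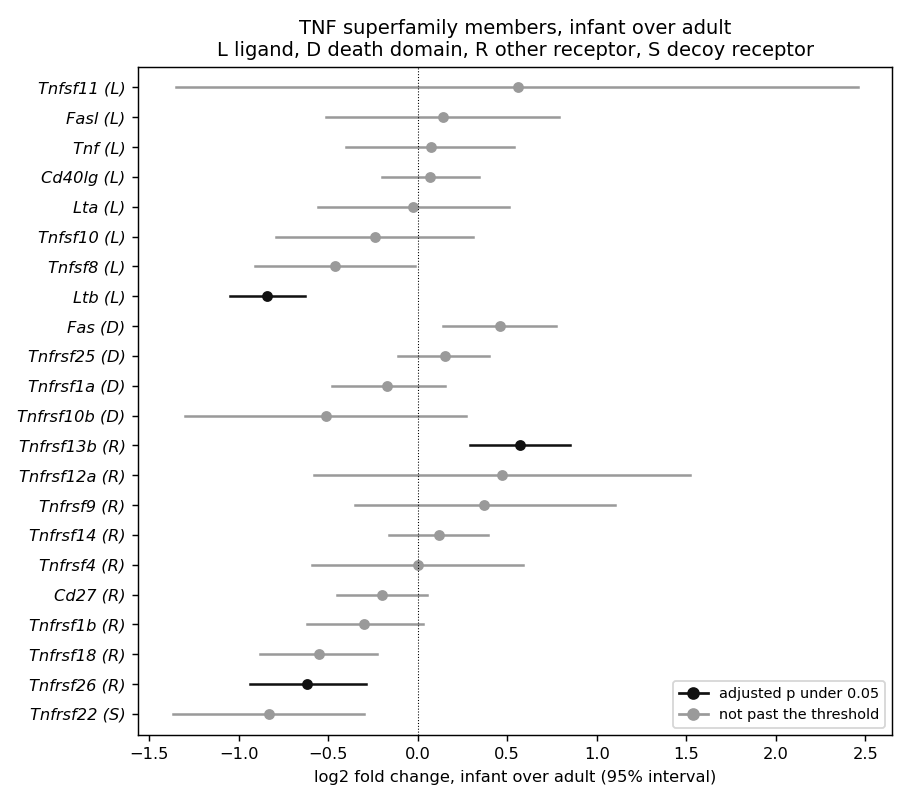
Log2 fold change of the 22 tested members, infant over adult, with 95% intervals from the edgeR fit, grouped by role. Black points passed an adjusted p of 0.05: Ltb (-0.84), Tnfrsf26 (-0.62) and Tnfrsf13b (0.57).

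Library totals ran from 4115742 to 4739304 counts in the infant and from 3421253 to 4887371 in the adult group. Adult replicate 2 stood apart: 36373 genes had a count there, against 17992 to 21840 elsewhere, and it held 1.85 counts per kb of exon over 10978 protein-coding genes too low to test, against 0.185 to 0.348. At that density the exons of Ltb, Tnfrsf26 and Tnfrsf13b would hold 2.81, 5.96 and 5.25 counts in that library, of the 4399, 499 and 280 found. T cell identity genes (7 listed) summed to 6445 to 6714 CPM in infant and 5932 to 6934 CPM in adult libraries, where CPM are counts scaled to library size with TMM factors, and none of the 7 passed. Natural killer and innate lymphoid genes (7 listed) summed to 49.1 to 54.9 CPM in infant and 129 to 138 CPM in adult libraries, mostly from Prf1 (perforin), which fell (log2 fold change -1.86, edgeR adjusted p = 7.34e-05), and Id2, which did not pass. The defining gene Ncr1 had 0 counts in all libraries, and Klrb1c had 0 in the infant libraries and in adult replicate 1, 2 counts in adult replicate 3 and 18 in adult replicate 2. Myeloid, dendritic and erythroid lists summed to at most 18.1 CPM in infant and 32.4 CPM in adult libraries. Erythroid genes summed to at most 0.284 CPM. Endothelial and stromal genes summed to 376 to 391 CPM and 320 to 395 CPM, nearly all from Pecam1. The part of the cells that these lists mark in the results was not tested.

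Among the ligands, lymphotoxin beta was both the most abundant and the most changed by p. Ltb (chromosome 17, 35194439 to 35196320, mm10) encodes the membrane chain that anchors lymphotoxin alpha at the cell surface and signals to stromal cells of lymphoid organs. It had 608, 672 and 654 CPM in the infant libraries, against 1057, 1250 and 1154 CPM in the adult libraries. Every infant library lay below every adult library, with a gap wider than the spread of either group. The means were 645 ± 32.6 and 1154 ± 96.4 CPM (SD, n = 3 each), a log2 fold change of -0.84 ± 0.10 (SE; 95% interval -1.05 to -0.63; edgeR adjusted p = 2.69e-04). Without each library in turn the log2 fold change stayed between -0.90 and -0.78, with adjusted p of 1.77e-04 to 0.00753. B cells and innate lymphoid cells also express Ltb. The innate lymphoid list moved in the same direction, with the values given above, and its part in the difference was not tested. Summed B cell genes (7 listed) were at 4.60 to 8.45 CPM in the infant and 8.0 to 17.0 CPM in the adult libraries. In every library but adult replicate 2 most of this was Cd79a, the 1 tested gene of the list, with 26, 19 and 25 counts in the infant and 28, 22 and 31 in the adult libraries. These counts overlapped. In CPM the infant values (5.44, 4.60 and 6.04) lay narrowly below the adult values (6.79, 6.25 and 6.62), and Cd79a did not pass the threshold (log2 fold change -0.29, edgeR adjusted p = 0.483). Cd22 and Blk had 0 counts in every library but adult replicate 2, which held 3 and 4. The part of B cell RNA in the difference was not tested.

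The genes Tnf and Lta follow Ltb in the MHC region, with gaps of 3.06 kb and 1.16 kb. Tnf, the founding inflammatory cytokine of the family, had 31.6, 23.9 and 34.1 CPM in the infant and 31.8, 31.8 and 22.0 CPM in the adult libraries. Lta, the secreted lymphotoxin alpha, had 16.1, 17.7 and 22.0 CPM in the infant and 20.1, 14.5 and 21.8 CPM in the adult libraries. The groups overlapped for both genes, and neither passed (log2 fold change 0.072, 95% interval -0.40 to 0.54, for Tnf and -0.024, -0.56 to 0.51, for Lta). The sign for Lta was opposite under 5 of 14 alternatives and for Tnf under 2. The ratio of Ltb to Tnf within a library was 19.2, 28.1 and 19.2 in infant and 33.3, 39.3 and 52.4 in adult libraries, a difference of -0.91 on the log2 scale. The ratio of Ltb to Lta was 37.7, 38.0 and 29.8 in infant and 52.5, 86.3 and 52.9 in adult libraries, a difference of -0.83. Neither ratio overlapped between the groups (exact permutation test, two-sided p = 0.1 each, the smallest that 3 against 3 allows, and 0.3 adjusted over the 6 ratios computed).

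Of the other 5 tested ligands none passed. Cd40lg (chromosome X), the T cell help signal to B cells and dendritic cells, had 101, 115 and 117 CPM in the infant and 116, 103 and 98.1 CPM in the adult libraries, with overlapping groups (log2 fold change 0.068, 95% interval -0.20 to 0.34). Tnfsf8, which encodes CD30 ligand, had 57.0, 52.7 and 54.8 CPM in the infant and 104, 71.6 and 51.3 CPM in the adult libraries. All infant values lay within the adult range, of which adult replicate 1 was the top (log2 fold change -0.46 ± 0.21, SE; edgeR adjusted p = 0.269). Tnfsf10, the apoptosis ligand TRAIL, had 42.1, 27.1 and 25.1 CPM in the infant and 45.3, 24.1 and 41.4 CPM in the adult libraries. Fasl, the ligand of Fas, spread most within the infant group, at 32.0, 12.1 and 20.3 CPM, against 22.1, 17.9 and 18.6 CPM in the adult libraries. Tnfsf11, which encodes RANK ligand, was at the edge of detection, with 16, 0 and 13 counts in the infant and 11, 4 and 3 counts in the adult libraries. Together the 16 ligands other than Ltb summed to 274 ± 20.8 CPM in infant and 301 ± 46.3 CPM in adult libraries (SD, n = 3 each), a difference within the adult spread. The summed level of all members was 2267 ± 52.4 CPM in infant and 2903 ± 44.1 CPM in adult libraries with Ltb and 1622 ± 65.4 and 1749 ± 139 CPM without it.

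Of 4 tested death domain receptors none passed. Fas (chromosome 19), the receptor through which activated T cells are killed, came nearest. It had 70.4, 80.5 and 72.2 CPM in the infant libraries, against 50.9, 50.3 and 61.1 CPM in the adult libraries. All infant values lay above all adult values (log2 fold change 0.46 ± 0.15, SE, edgeR adjusted p = 0.109), and the adjusted p was 0.0908 to 0.355 over the alternatives. Tnfrsf25, the receptor DR3 of TL1A, had 207, 176 and 193 CPM in the infant and 190, 151 and 179 CPM in the adult libraries. Tnfrsf1a, the TNF receptor with a death domain, had 61.3, 56.8 and 58.4 CPM in the infant and 67.6, 56.8 and 73.5 CPM in the adult libraries. Both overlapped between the ages, with 95% intervals of -0.11 to 0.40 and -0.48 to 0.15 for the log2 fold change. Tnfrsf10b, the mouse death receptor of TRAIL, had 5.65, 6.05 and 5.80 CPM in the infant and 7.52, 8.52 and 8.97 CPM in the adult libraries. Its groups did not overlap, but at 24 to 42 counts per library it did not pass (log2 fold change -0.51 ± 0.37, SE, edgeR adjusted p = 0.529). In adult replicate 2 the density of counts over silent genes would by itself give 10.1 of its 30 counts, or 33.6%, and the separation of the groups depends on them.

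TACI was the member that rose. Tnfrsf13b (chromosome 11, 61126755 to 61149372) is best known from B cells. It had 105, 106 and 114 CPM in the infant libraries, against 64.5, 79.6 and 75.6 CPM in the adult libraries. The groups were separated and each was narrow, with means of 109 ± 5.12 and 73.2 ± 7.82 CPM (SD, n = 3 each) and a log2 fold change of 0.57 ± 0.13 (SE; 95% interval 0.29 to 0.85; edgeR adjusted p = 0.0266). The call held without adult replicate 2 (adjusted p = 0.0209) and was lost without adult replicate 1 or 3 or infant replicate 1, 2 or 3 (edgeR adjusted p 0.139, 0.0754, 0.0815, 0.117 and 0.126), at log2 fold changes of 0.49 to 0.60. Of the B cell genes, Cd79a was detected in every library. Its counts overlapped between the groups and its CPM lay narrowly lower in the infant group, with the values given above. Cd79b had 13, 0 and 5 counts in the infant and 1, 3 and 14 in the adult libraries. Ms4a1 and Pax5 had 1 and 4 counts in the infant and 15 and 6 in the adult libraries, and Cd22 and Blk had 0 in every infant library. The part of B cell RNA in the level of Tnfrsf13b was not tested. The other receptors of BAFF and APRIL were too low to test. Tnfrsf13c, the BAFF receptor, had 3, 0 and 0 counts in the infant and 0, 1 and 11 in the adult libraries. Tnfrsf17, which encodes BCMA, had counts in adult replicate 2 alone, 9 in all. The RNA of the ligands was also low, with 1 count of Tnfsf13 (APRIL), which shares 58.8% of its 25-base words with other genes, in the infant and 1 in the adult libraries, and 13 and 27 counts of Tnfsf13b (BAFF), 25 of the 27 in adult replicate 2.

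**Figure D2:**
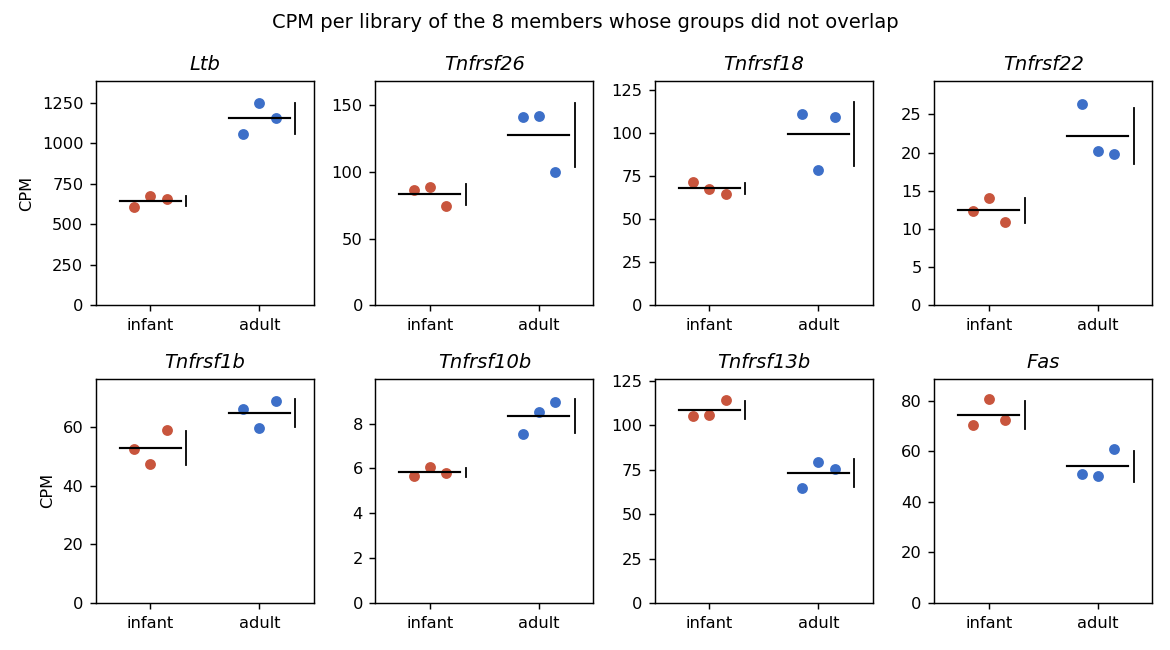
CPM in each library for the 8 tested members whose infant and adult values did not overlap; points are libraries, horizontal bars means and vertical bars the SD of 3. Ltb, Tnfrsf26, Tnfrsf18, Tnfrsf22, Tnfrsf1b and Tnfrsf10b lie lower in the infant group, and Tnfrsf13b and Fas higher.

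The receptor genes Tnfrsf26, Tnfrsf22 and Tnfrsf23 stand side by side on chromosome 7 (143607659 to 143685872), with gaps of 6.08 and 16.1 kb. In mice Tnfrsf22 and Tnfrsf23 encode decoy receptors of TRAIL without a working death domain. Tnfrsf26 had 86.5, 88.8 and 74.1 CPM in the infant libraries, against 142, 142 and 99.99 CPM in the adult libraries. The infant values lay below the adult values, with adult replicate 3 nearest to them (log2 fold change -0.62 ± 0.15, SE; 95% interval -0.94 to -0.29; edgeR adjusted p = 0.0384). The call was lost without adult replicate 1 or 2 or infant replicate 1, 2 or 3 (edgeR adjusted p 0.179, 0.0875, 0.121, 0.137 and 0.168), with library totals (0.0540) and in limma-voom (0.0514), always in the same direction. Tnfrsf22 had 12.4, 14.03 and 10.9 CPM in the infant and 26.4, 20.2 and 19.9 CPM in the adult libraries. It too lay lower in every infant library, but did not pass (log2 fold change -0.83 ± 0.25, SE, edgeR adjusted p = 0.0852). Tnfrsf23 was too low to test, with 10, 5 and 5 counts in the infant and 5, 10 and 15 in the adult libraries. The ratio of Tnfrsf26 to Tnfrsf22 overlapped between the ages, at 7.00, 6.33 and 6.82 in infant and 5.36, 7.03 and 5.03 in adult libraries (exact permutation test, two-sided p = 0.4).

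Single words of 25 bases, the length of a read, do not separate all of these neighbours. Of the 25-base words in the annotated transcripts of Tnfrsf22, 44.5% also occur in another gene, most of them in Tnfrsf23, and 32.8% of the words of Tnfrsf23 are shared. The reads came in pairs, and the share of pairs that match both genes was not measured. How well the counts split between those 2 genes is therefore not known. Tnfrsf26 shared 5.66% of its words and none with Tnfrsf22 or Tnfrsf23. Its exons overlap the antisense gene E230032D23Rik by 107 bases, which had 21, 20 and 11 counts in the infant and 36, 25 and 35 in the adult libraries, against 307 to 413 and 468 to 584 counts of Tnfrsf26. Ltb and Tnfrsf13b shared no 25-base word with another gene.

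The costimulatory receptors of T cells gave no call. Cd27 (chromosome 6), a receptor that supports the survival of naive and primed T cells, had 528, 491 and 542 CPM in the infant and 638, 494 and 657 CPM in the adult libraries. Adult replicate 2 lay among the infant values, and the groups overlapped (log2 fold change -0.20 ± 0.12, SE, 95% interval -0.45 to 0.052). Tnfrsf14, the receptor HVEM of LIGHT, had 117, 107 and 139 CPM in the infant and 109, 111 and 114 CPM in the adult libraries (log2 fold change 0.12, 95% interval -0.16 to 0.39). Tnfrsf1b, the TNF receptor without a death domain, had 52.6, 47.4 and 58.9 CPM in the infant and 66.2, 59.7 and 69.0 CPM in the adult libraries. Its groups did not overlap by a margin of under 1 CPM, and it did not pass (log2 fold change -0.30, SE 0.15, adjusted p = 0.345 in edgeR). In adult replicate 2 the density of counts over silent genes would give 7.07 of its 210 counts, and the separation depends on them.

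Tnfrsf18, Tnfrsf4 and Tnfrsf9 encode GITR, OX40 and 4-1BB, which are known to be high in regulatory and activated T cells. Tnfrsf18 had 71.6, 67.5 and 65.0 CPM in the infant libraries, against 111, 78.4 and 109 CPM in the adult libraries. The infant values were close to each other and below all adult values, with adult replicate 2 nearest (log2 fold change -0.55 ± 0.15, SE, edgeR adjusted p = 0.0601). It passed without adult replicate 2 (log2 fold change -0.70, adjusted p = 0.00977), in DESeq2 (adjusted p = 0.0303), with the stricter filter (0.0458) and with library totals (0.0499). The neighbouring gene Tnfrsf4, 9.55 kb away on chromosome 4, had 13.0, 16.7 and 22.2 CPM in the infant and 23.3, 23.0 and 5.98 CPM in the adult libraries. Adult replicate 3 stood far below the other adults for Tnfrsf4, and the interval of its log2 fold change, -0.59 to 0.59, does not fix a direction. Tnfrsf9 had 17.8, 28.8 and 19.3 CPM in the infant and 25.7, 8.24 and 16.5 CPM in the adult libraries, also overlapping. The ratio of Tnfrsf18 to Tnfrsf4 was 5.52, 4.04 and 2.92 in infant and 4.78, 3.41 and 18.3 in adult libraries (exact permutation test, two-sided p = 0.5). Regulatory T cell genes outside the family (8 listed) summed to 99.9 to 104 CPM in infant and 90.2 to 101 CPM in adult libraries. The largest part was Capg, at 55.5 to 58.9 CPM in infant and 46.6 to 56.0 CPM in adult libraries. Foxp3 had 7.12, 6.53 and 9.18 CPM in infant and 6.06, 6.25 and 4.49 CPM in adult libraries, and none of 6 tested genes passed the threshold. The share of regulatory cells was not tested. Activated and memory genes (9 listed) summed to 161 to 174 and 152 to 185 CPM, mostly from Icos and Cd44, and none of 4 tested genes passed. Of these 4, 1 had a log2 fold change above 0, Cd44 (0.38, edgeR adjusted p = 0.365), and 3 below 0. Among the 3 was Pdcd1, which lay lower in every infant library (-0.81, edgeR adjusted p = 0.196). Of the 25-base words of Tnfrsf18, 23.0% also lie in the antisense gene Gm16008, which had 24, 16 and 3 counts in the infant and 15, 13 and 25 in the adult libraries, against 269 to 342 and 276 to 512 counts of Tnfrsf18.

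Tnfrsf12a, the receptor of TWEAK, was tested at the low end, with 29, 16 and 23 counts in the infant and 14, 9 and 24 in the adult libraries, and did not pass (log2 fold change 0.47, 95% interval -0.58 to 1.52). By the separation of the groups, 8 of 22 tested members (2 with infant values above, 6 with infant values below) did not overlap, beside 22.8% of all tested genes (11.2% above, 11.6% below). Among the 6, the separation of Tnfrsf10b and Tnfrsf1b depends on background counts in adult replicate 2, as given above. As with the calls, this rate is not a test of a family chosen with earlier results known.

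**Figure D3:**
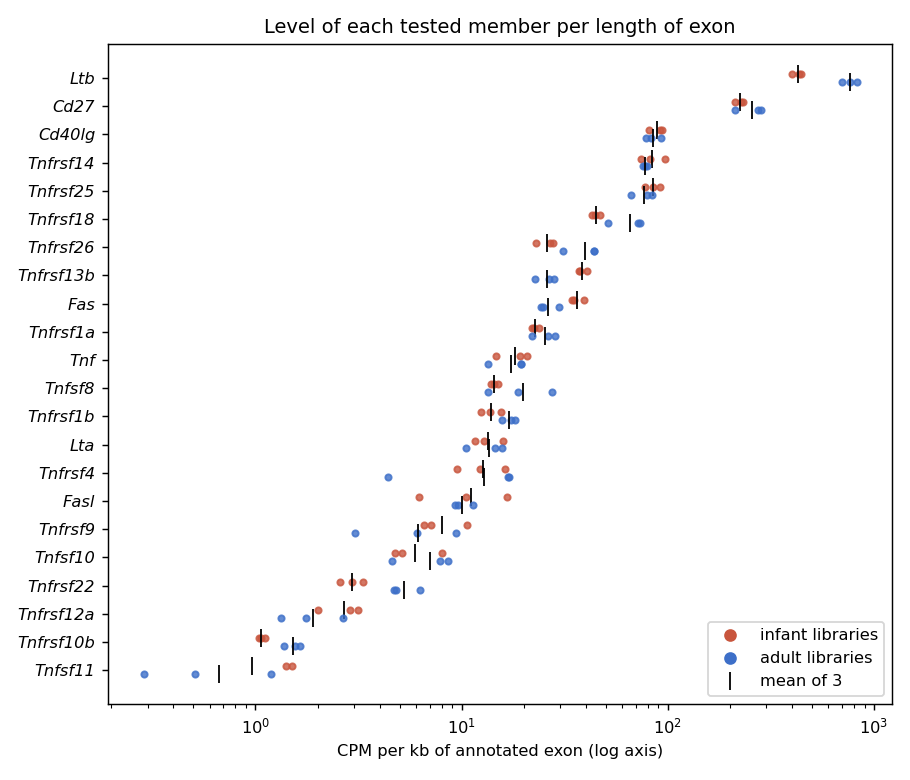
Level of the 22 tested members as CPM per kb of annotated exon on a log axis, ordered by the mean of 6 libraries; points are libraries (those at 0 are not drawn) and bars the mean of 3. Ltb and Cd27 lie above the rest, and Tnfsf11 is lowest at 0.967 CPM per kb in infant and 0.663 in adult libraries.

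Per length of exon, Ltb and Cd27 were the most abundant members at both ages. Ltb stood at 425 ± 21.5 CPM per kb in infant and 761 ± 63.6 CPM per kb in adult libraries, and Cd27 at 224 ± 11.2 and 256 ± 38.4 CPM per kb. Cd40lg, Tnfrsf14 and Tnfrsf25 followed at 88.6 ± 7.01, 84.1 ± 11.3 and 84.4 ± 6.90 CPM per kb in infant and 84.5 ± 7.24, 77.4 ± 1.91 and 76.2 ± 8.95 CPM per kb in adult libraries (SD, n = 3 each). These 3 neighbours in the order did not differ beyond their spread. The middle of the order differed between the ages: Tnfrsf26, Tnfrsf13b and Fas stood at 25.8 ± 2.44, 38.3 ± 1.81 and 36.1 ± 2.63 CPM per kb in infant libraries and at 39.7 ± 7.48, 25.8 ± 2.76 and 26.2 ± 2.95 CPM per kb in adult libraries. Tnfrsf26 was thus the lowest of the 3 in infant and the highest in adult cells. The ranges of mean ± SD of Tnfrsf13b and Fas overlapped at both ages. The rest ran from Tnfrsf18, at 44.6 ± 2.20 and 65.4 ± 12.1 CPM per kb, down to Tnfsf11.

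Both partners were tested in a minority of the listed pairs of a ligand and a receptor known to bind it. The list is not complete: it leaves out Tnfsf10 with its decoy receptor gene Tnfrsf22, both of which were tested. Of 24 listed pairs, 6 had both partners tested: Tnf and Lta each with Tnfrsf1a and Tnfrsf1b, Fasl with Fas, and Tnfsf10 with Tnfrsf10b. In 9 pairs the receptor alone was tested, among them Cd27, whose ligand Cd70 had 0 counts in the infant and 5 in the adult libraries, and Tnfrsf25, whose ligand Tnfsf15 had 2 and 17. In 5 the ligand alone was tested, among them Ltb, whose receptor gene Ltbr had 0 counts in the infant and 5 in the adult libraries, and Cd40lg, whose receptor gene Cd40 had 0 and 11. The ratio of Fas to Fasl was 2.20, 6.66 and 3.56 in infant and 2.31, 2.81 and 3.29 in adult libraries (exact permutation test, two-sided p = 0.5). The ratio of Tnfrsf1b to Tnfrsf1a was 0.857, 0.834 and 1.01 in infant and 0.978, 1.05 and 0.939 in adult libraries (exact permutation test, two-sided p = 0.3).

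The 20 members too low to test had at most 19 counts in any infant library and 25 in any adult library. Cd40, Cd70, Tnfrsf11a (RANK), Tnfrsf17, Tnfrsf8 (CD30) and Tnfsf12 (TWEAK) had counts in adult replicate 2 alone, from 2 to 15, or 1.32 to 11.0 counts per kb of exon. That library had counts at 18 of the 19 untested protein-coding members, 189 in all, whereas the other 5 libraries had counts at 7 or 8 of them, 35 to 67 in all. A count of 0 allows up to 0.628 to 0.726 CPM in an infant library and 0.641 to 0.852 CPM in an adult library, for counting error only. Tnfrsf19, a receptor known from skin and brain, had 6, 7 and 9 counts in the infant and 1, 22 and 0 in the adult libraries, so its order rests on adult replicate 2. Tnfsf9, the ligand of 4-1BB, had 5, 4 and 7 counts in the infant and 14, 17 and 11 in the adult libraries. Its counts did not overlap, but they were under the filter and gave no test, and 13.3% of its 25-base words also lie in the overlapping noncoding gene Gm11110. Tnfsf14 (LIGHT) had 19, 4 and 6 counts in the infant and 24, 7 and 11 in the adult libraries. Tnfrsf21 (DR6) had 0, 7 and 17 counts in the infant and 5, 4 and 7 in the adult libraries. Tnfsf4 (OX40 ligand), Tnfsf18 (GITR ligand), Tnfrsf11b (the decoy receptor osteoprotegerin) and Tnfsf13os summed to 4, 1, 7 and 1 counts in the infant and 18, 13, 7 and 1 in the adult libraries.

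**Figure D4:**
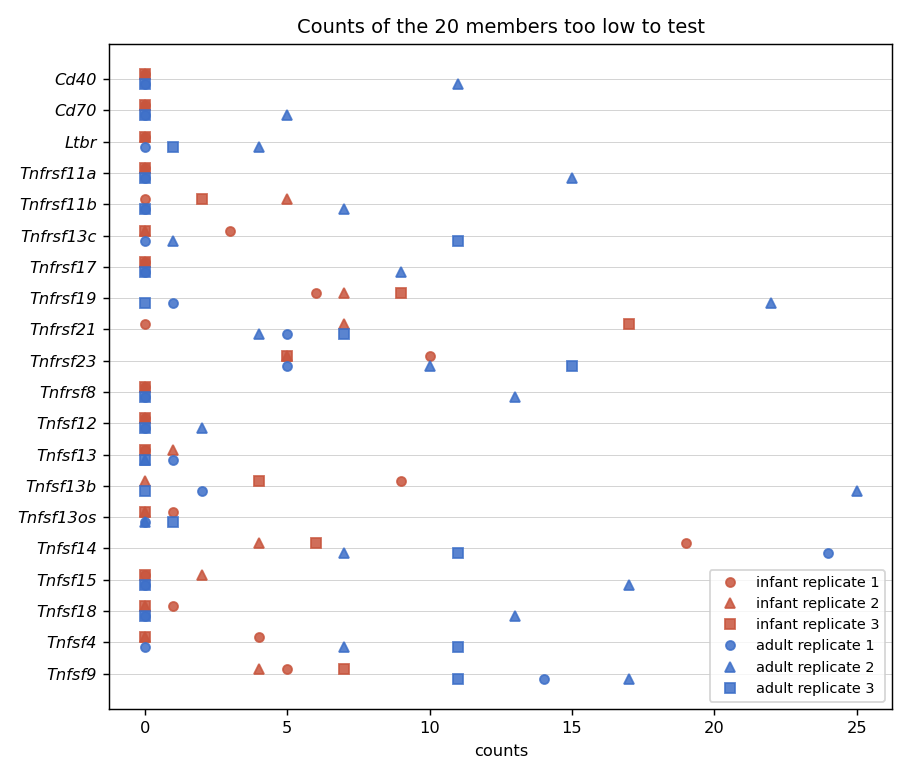
Counts in each library of the 20 members too low to test; shapes are replicates. Adult replicate 2 (blue triangles) holds the highest count for 13 members, 6 of which have no count in the other 5 libraries.

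Inside the cell, genes that carry signals from these receptors to NF-kB and to cell death fell or did not pass. Of 44 signalling genes listed, 43 were tested: 4 fell, 0 rose and 39 did not pass, with a median log2 fold change of -0.056. This is 9.30% called, beside 3.64% of all tested genes (1.52% higher and 2.11% lower in infant cells). At an unadjusted p under 0.05 there were 12 of the signalling genes, beside 17.3% of all tested genes. The list was chosen with earlier results of these data known, so these rates are not a test of it. Traf1, an adaptor of TNFR2-type receptors and itself induced by NF-kB, had 66.4, 70.6 and 79.9 CPM in the infant and 274, 242 and 270 CPM in the adult libraries, with a wide gap (log2 fold change -1.86 ± 0.12, SE, edgeR adjusted p = 1.05e-06). Nfkb2, which encodes p100 of the alternative pathway that LTBR, CD40 and BAFF receptors use, had 64.3, 45.7 and 47.3 CPM in the infant and 80.7, 80.4 and 104 CPM in the adult libraries (-0.75 ± 0.17, adjusted p = 0.0233). Nfkbia, the inhibitor IkB-alpha, had 323, 319 and 299.7 CPM in the infant and 508, 432 and 456 CPM in the adult libraries (-0.57 ± 0.10, adjusted p = 0.00669). Nfkbiz, the nuclear protein IkB-zeta, had 38.7, 36.5 and 43.5 CPM in the infant and 63.0, 69.9 and 62.8 CPM in the adult libraries (-0.72 ± 0.15, adjusted p = 0.0183). None of these 4 genes, picked here by their p, overlapped between the ages. Of the 43 tested, 3 had infant values wholly above and 13 wholly below the adult values. The shares over all tested genes were 11.2% and 11.6%. As with the calls, this is not a test of the list. Traf1 kept its call without each library in turn (adjusted p at most 2.86e-04). Nfkb2 lost it without infant replicate 2 or 3 or adult replicate 1 or 3 (edgeR adjusted p 0.160, 0.125, 0.0652 and 0.119), Nfkbia without infant replicate 2 or 3 or adult replicate 1 (0.0668, 0.0557 and 0.0630), and Nfkbiz without infant replicate 1 or 2 or adult replicate 1 or 3 (0.0816, 0.120, 0.0652 and 0.0530). The 4 calls became 1 without infant replicate 2 or adult replicate 1 and 2 without infant replicate 3 or adult replicate 3.

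The 2 genes of highest CPM in the list that did not pass were Ikbkb, the kinase that marks IkB for destruction, and Rbck1, a subunit of the linear ubiquitin ligase. Ikbkb averaged 536 ± 13.2 CPM in infant and 467 ± 18.9 CPM in adult libraries (log2 fold change 0.20, 95% interval -0.0033 to 0.40), and Rbck1 452 ± 37.0 and 420.3 ± 13.8 CPM (0.10, -0.11 to 0.32). The mediators of death from these receptors, Fadd (-0.50 ± 0.25), Casp8 (0.10 ± 0.10), Cflar (-0.15 ± 0.11), Ripk1 (0.18 ± 0.26) and Ripk3 (0.43 ± 0.17), did not pass (log2 fold change with SE). Mlkl was too low to test. Of 7 genes that cut or release membrane ligands, 0 passed in edgeR, beside 3.64% of all tested genes. At an unadjusted p under 0.05 there was 1, Furin, beside 17.3% of all tested genes. Furin lay higher in every infant library (log2 fold change 0.82, edgeR adjusted p = 0.264). In this list 3 log2 fold changes were above 0 and 4 below. Frmd8 and Sppl2a, the highest in that list, averaged 485 ± 21.5 and 151 ± 2.59 CPM in infant and 539 ± 26.1 and 153 ± 9.33 CPM in adult libraries. The family genes Eda, Edar, Eda2r, Ngfr and Relt, whose symbols lie outside the naming rule, held 1 tested gene, Relt, with 81.9, 80.8 and 86.9 CPM in infant and 68.9, 78.1 and 63.7 CPM in adult libraries (log2 fold change 0.25, 95% interval -0.044 to 0.54).

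**Figure D5:**
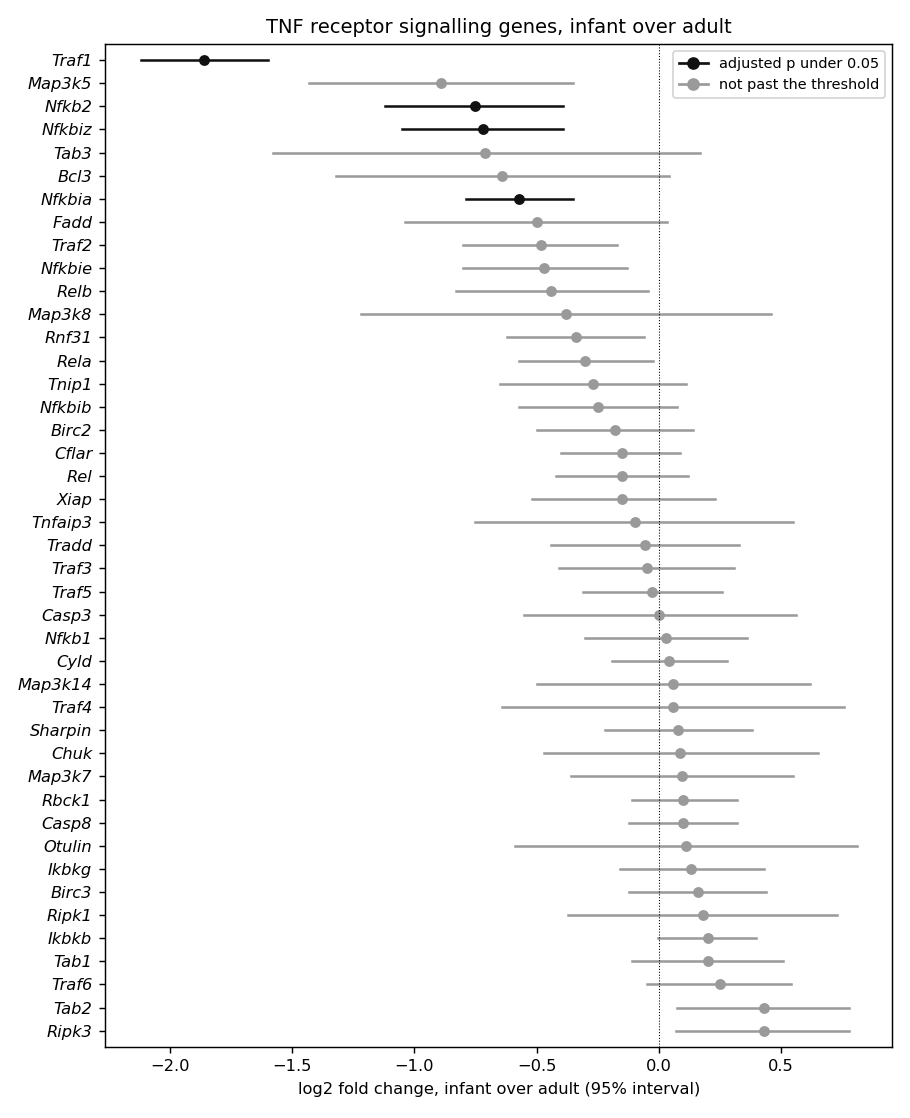
Log2 fold change of 43 tested TNF receptor signalling genes, infant over adult, with 95% intervals from the edgeR fit. Black points passed an adjusted p of 0.05: Traf1, Nfkb2, Nfkbiz and Nfkbia, all below 0.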

How the data were processed

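Polyadenylated RNA of 1000 sorted cells per library was amplified by PCR and sequenced in 25-base pairs by a protocol without strand or molecular identifiers, per the labels' protocols. STAR 2.5.4, featureCounts and mm10 are named in the submitters' processing notes; no source used here gives the annotation release or how multiply matching reads were treated. The deposited values are raw counts per gene symbol. Here genes were filtered with filterByExpr (minimum count 10, minimum total 15), scaled by TMM and tested by the quasi-likelihood method of edgeR 4.0.16 under R 4.3.3, with Benjamini-Hochberg adjustment over 11681 genes. SE is the absolute log2 fold change over the square root of F; intervals of 95% use the fit's degrees of freedom. Positions, exon lengths and transcripts are from GENCODE M21 on the same build, which matched all 42 members. Tests measure the spread between 3 libraries a group. Members and lists were chosen with earlier results of these data known. Members named with every library's value are those past the threshold, those without overlap and the 12 of highest CPM; others were added. Alternatives were other scalings (DESeq2 1.42.0 size factors, upper quartile, library totals), no filter or a stricter filter, the replicate number as a block, DESeq2, limma-voom (limma 3.58.1) and leaving out each library. When checked on simulated counts for 11420 genes, this fit found 66.7% of genes changed 2-fold, 100% of those changed 4-fold, and 10 false calls. The simulation gave all genes the same dispersion and no library a background like that of adult replicate 2, so these rates need not hold for the data. The called members changed 1.48-fold to 1.79-fold, less than the smallest change simulated. Some marker genes are not reported here.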

Additional observations from a re-analysis of the deposited data

How the results depend on the processing

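Of 22 tested members, 19 kept their side of the threshold in all alternatives that could be fitted; Tnfrsf13b, Tnfrsf26 and Tnfrsf18 did not, with the values given in the report. The count of members called was 2 to 4 over the other scalings, filters and tools and 1 to 3 without single libraries (higher 0 to 1, lower 1 to 2), and the lower count was 1 in limma-voom. Signalling genes called, all lower, numbered 4 to 5 and 1 to 4 without single libraries. All genes called numbered 326 to 622 and 139 to 488 without single libraries; the causes were not tested. With no filter the median log2 fold change of all genes was -0.84, beside -0.017 to 0.010 in the others. Replicate numbers did not pair the libraries (correlations of deviations -0.0471, -0.0108 and -0.0919), and the fit with the replicate block called the same 3 members and 326 genes. Depth limits members under about 10 counts per library.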
